A study of Physcomitrium patens with 4 samples.

Results

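The 122 genes described here had more reads after red light than in the dark in wild type and also in the double mutant pubs hy2 of the moss Physcomitrium patens, with a smaller fold in the mutant. They were chosen by their reads in all 4 libraries. For each gene, the reads plus 0.5 were divided by the sum of reads of the library, and the red light value was divided by the dark value to give a fold, W in wild type and M in pubs hy2. Members had W of at least 3, M of at least 1.5 and a ratio W/M of at least 2, with at least 50 reads in wild type after red light and less than 10% multi-mapping reads (reads that match several places) in each library. Of 32273 genes in the files, 16228 passed the limits on reads and on multi-mapping and are called eligible, and 122 of these (0.752%) passed the limits on the folds. All folds between red light and dark below were used to choose the genes, so they are given as a description with no test.

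Messenger RNA was sequenced from protonema, the branching filaments of the moss, of the ecotype Gransden2004, and the labels name the tissue as chloronema, its green filament type. Each of the 2 genotypes was sampled before and after exposure to red light, which makes 4 groups of 1 library. All cultures were 10-day-old and had spent 3 days in darkness, and the treated ones then received 1 hour of light at 660 nm and 5 μmol per square metre per second, at 25 °C. The dark libraries are time 0 controls, and a dark control of the later time is not among the samples, so an effect of light and an effect of the elapsed hour cannot be told apart. With 1 library per group there is no replicate error, and the 95% intervals below cover only counting error. The labels do not say whether the mutant is 1 clone or how many cultures gave each library.

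Phytochromes are red and far-red light receptors that carry a linear tetrapyrrole pigment, or bilin. Red light turns the receptor into its active form, which in plants moves to the nucleus and alters the transcription of many genes within an hour. HY2 and PUBS are bilin synthases, which reduce biliverdin to bilins, and the labels describe the double mutant as deficient in phytochrome. Red light is also absorbed by chlorophyll and its precursor protochlorophyllide. The design asked which transcripts respond to a short red light exposure and which responses differ in the mutant. The files give gene identifiers without names, and none of them was found in the reference gene table (0 matches), so the members are described by identifier, and neither the mutated genes nor markers of the tissue could be looked up.

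Together the members took a much larger share of the library after red light in wild type than in pubs hy2. Their reads summed to 0.405% of all reads on genes in wild type in the dark and 2.27% after red light. In pubs hy2 the sums were 0.384% in the dark and 0.827% after red light. The summed share was thus 5.61-fold higher after red light in wild type, and the mutant reached 2.15-fold. The dark shares of the genotypes lay close together, with a ratio of pubs hy2 to wild type of 0.947, and the red light shares lay apart, with a ratio of 0.364. The increase in pubs hy2 was 23.7% of that in wild type. The 10 members with the most reads in wild-type red light supplied 1.14% of that library, and without them the share of the other 112 was still 6.83-fold higher in wild type and 2.16-fold higher in pubs hy2. The dark ratio of these 112 was 1.29 and that of the 10 was 0.706, so the near equality of the summed dark shares joins groups that lay on either side of it.

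**Figure D1:**
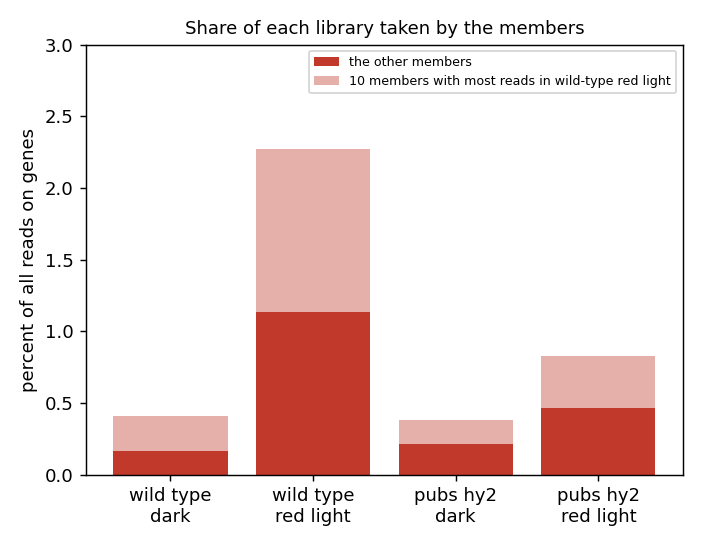
Percent of all reads on genes taken by the 122 members in each of the 4 libraries (bars from 0, 1 library each, no error), split into the 10 members with the most reads in wild-type red light and the other 112. The bar for wild type after red light reaches 2.27%, against 0.827% for pubs hy2 after red light and 0.405% and 0.384% in the dark.

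Member by member, the wild-type fold W had a median of 6.10 and ran from 3.28 to 441. This maximum rests on the added 0.5 and is 73.4 with a floor of 3 reads. The pubs hy2 fold M had a median of 2.09 and ran only from 1.504 to 7.06. On the log2 scale the median of W was 2.61 and that of M was 1.06, against -0.04 and 0.02 over all eligible genes. With the genes at 0 reads in the dark set to a bound (3 reads), the medians were 2.61 and 1.05. In wild type 27 members had W of at least 10, 58 had W from 5 to 10, and 37 had W under 5. In pubs hy2 27 had M of at least 3 and 52 had M under 2. The share of eligible genes with W of at least 3 was 2.33%, that with M of at least 1.5 was 10.6%, and that with W/M of at least 2 was 4.38%, and nothing is read from these shares because the rule used the same folds.

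Members with larger folds in wild type also had larger folds in pubs hy2, but by a smaller step. The median M was 1.78 for the 37 members with the lowest W, 2.27 for the 58 in the middle and 3.90 for the 27 with W of at least 10. The median W of these groups was 4.16, 6.34 and 20.9. The median W/M accordingly was 2.20, 2.86 and 6.01. As a share of the wild-type increase in CPM (reads of a gene scaled to a common library size), the increase in pubs hy2 had nearly the same median in the 3 groups, 22.2%, 25.4% and 25.7%. Over all members its median was 23.9%, and it was under 50% in 105 of 122 members and under 25% in 64. The limits of the rule shape these values, since W/M of at least 2 holds M at or below W/2 and keeps the increase under 50% of that in wild type in each member whose dark level was not higher in pubs hy2.

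**Figure D2:**
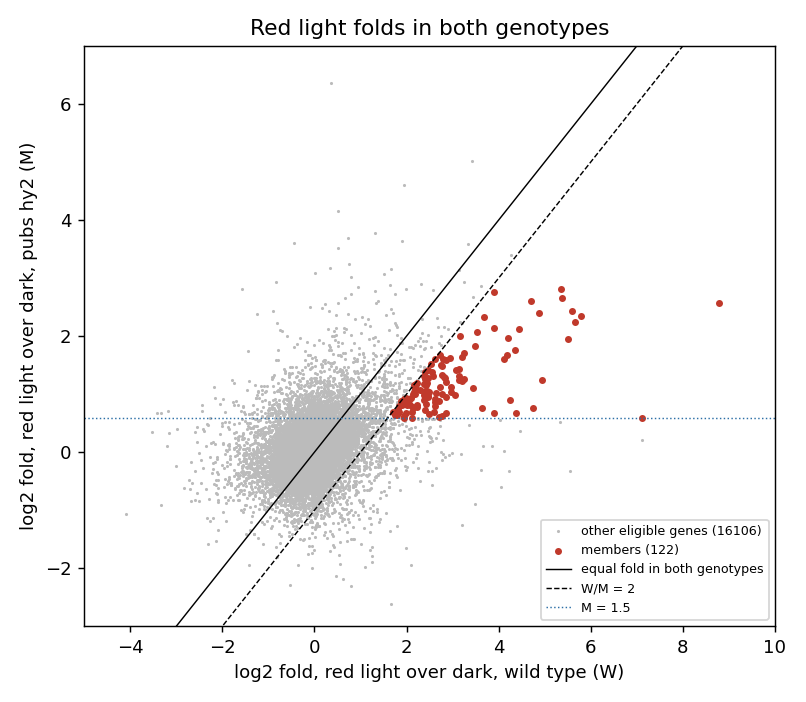
Log2 fold of red light over dark in wild type (x axis) and in pubs hy2 (y axis) for 16228 eligible genes, with 1 library behind each value and the limits of the rule as lines. The 122 members lie to the right of the dashed line and above the dotted line. Their highest log2 folds were 8.79 (wild type, Pp1s55_88V6) and 2.82 (pubs hy2). Pp1s55_88V6 had 0 dark reads, so its 8.79 rests on the added 0.5 and is 6.198 with a floor of 3 reads.

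The highest folds belonged to genes that were nearly silent in wild type in the dark. Pp1s55_88V6 had 0 reads in the dark and 308 after red light in wild type, 73.4-fold higher when the 0 is set to a floor of 3 reads. The counting interval of this wild-type fold ran from 59.3, with no upper limit. In pubs hy2 it had 0 and 4 reads, so its M of 5.91 rests on the added 0.5, and its counting interval (from 0.434, with no upper limit) holds 1. Pp1s109_69V6, a gene of 0.24 kb, rose from 0 to 96 reads in wild type, 22.9-fold higher when the 0 is set to the floor of 3 reads. Its counting interval in wild type began at 18.3 and had no upper limit. For pubs hy2 its reads were 18 in the dark library and 42 after red light. Its fold in pubs hy2 was 1.51 (interval 0.864 to 2.83). For both genes the red light response in pubs hy2 was not detectable at this depth.

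Pp1s370_29V6 was the leading member with ample reads. It stood at 2.904 CPM in wild type in the dark and 161 CPM after red light, a fold of 55.1 (interval 42.2 to 74.8). In pubs hy2 it stood at 16.4 and 84.0 CPM, a fold of 5.11 (4.48 to 5.86). The mutant thus began higher and ended lower than wild type, and W/M was 10.8 (7.95 to 14.6). Pp1s15_309V6 had the same order of the 4 libraries, with 1.71 and 78.8 CPM in wild type and 7.48 and 29.2 CPM in pubs hy2. Its folds were 45.4 (32.2 to 68.5) and 3.88 (3.19 to 4.80). Pp1s25_159V6 had the highest fold of all members in pubs hy2, 7.06 (6.04 to 8.35), from 10.99 to 77.8 CPM. In wild type it went from 4.499 to 184 CPM, a fold of 40.7 (32.8 to 51.8). All 3 genes ended below wild type, at 37.0% to 52.0% of its red light level.

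Pp1s37_306V6 had too few dark reads (wild type 20, mutant 26) to resolve a difference between the genotypes before red light. It had 1.14 CPM in wild type and 1.72 CPM in pubs hy2 in the dark, a ratio of 1.503 whose interval (0.812 to 2.86) holds 1. After red light it had 48.1 CPM in wild type and 11.1 CPM in pubs hy2, a ratio of 0.231 (0.201 to 0.265). Pp1s4_56V6 had 16.7 and 26.4 CPM in the dark, a ratio of 1.57 (1.35 to 1.84), and lay farther apart after red light, at 251 CPM in wild type and 42.3 CPM in pubs hy2. Its folds were 15.0 (13.4 to 16.9) and 1.60 (1.43 to 1.81). Pp1s155_102V6 had 4.38 and 136 CPM in wild type and 10.3 and 24.5 CPM in pubs hy2, with W/M of 13.1 (9.80 to 17.4), the highest ratio among members with at least 50 reads in each library.

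**Figure D3:**
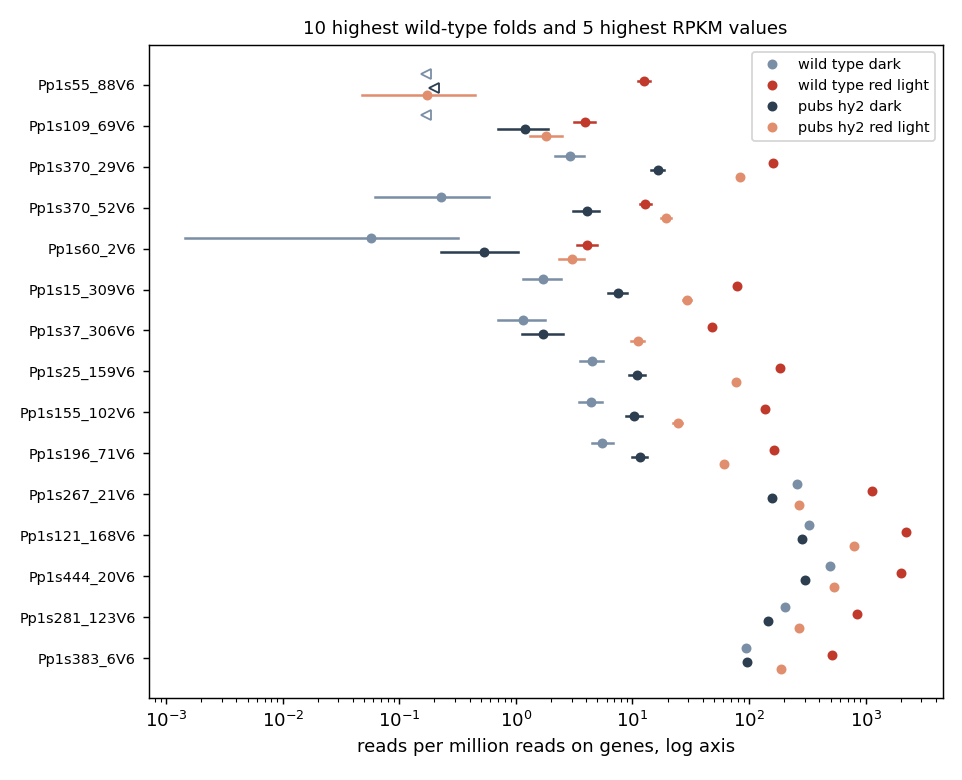
CPM (log axis) in the 4 libraries for the 10 members with the highest wild-type fold and the 5 with the highest RPKM in wild-type red light, with exact Poisson 95% intervals and open arrows at the floor of 3 reads where a library had 0. Wild type after red light is the highest library for every gene shown except Pp1s370_52V6, where pubs hy2 after red light (19.4 CPM) lies above it (12.9 CPM).

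The members that were most abundant per length in wild-type red light had moderate folds. RPKM, in which the authors divided reads by gene length and library size, was highest for Pp1s267_21V6, at 237 in wild type in the dark and 1018 after red light, and at 146 and 246 in pubs hy2. Its folds were 4.38 (4.25 to 4.52) and 1.70 (1.62 to 1.78). Pp1s121_168V6 followed with 117 and 785 RPKM in wild type and 102 and 284 RPKM in pubs hy2, and folds of 6.85 (6.67 to 7.05) and 2.79 (2.70 to 2.89). In the next 3, Pp1s444_20V6, Pp1s281_123V6 and Pp1s383_6V6, W was 4.03, 4.14 and 5.52 and M was 1.78, 1.86 and 1.95. In each of these 5 genes pubs hy2 after red light lay above wild type in the dark and at less than 37% of wild type after red light.

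By arithmetic, W/M equals the pubs hy2 to wild type ratio in the dark divided by that ratio after red light, so a smaller response can come with a higher dark level, a lower red light level or both. In most members it came mainly with a lower level after red light. The ratio of pubs hy2 to wild type had a median of 1.18 in the dark and 0.367 after red light, against 0.862 and 0.895 over eligible genes. Scaling by TMM factors, which discount genes that differ strongly, moved the median log2 dark ratio of all eligible genes from -0.21 to -0.11 and that of the members from 0.24 to 0.35. After red light 86 of 122 members were at least 2-fold lower in pubs hy2 (11.8% of eligible genes were) and 5 were at least 2-fold higher (10.2% were). In the dark 28 were at least 2-fold higher (9.17% of eligible genes were) and 11 were at least 2-fold lower (12.9% were). The lower level after red light made the larger part of log2 W/M in 91 members. These counts follow in part from the rule, which requires the red light ratio to be at most 0.5 times the dark ratio, and nothing is read from them against the shares of eligible genes.

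In 83 members the dark level of pubs hy2 was within 2-fold of wild type, and 67 of these were at least 2-fold lower after red light. The median level of all 83 was 10.8 CPM in wild type in the dark and 73.4 CPM after red light, and 12.7 and 26.9 CPM in pubs hy2. Apart from the 67, the other 16 stayed within 2-fold in both conditions, like Pp1s58_210V6. That gene had 5.52 and 20.5 CPM in wild type and 8.41 and 15.5 CPM in pubs hy2. At the other end of the group were Pp1s118_235V6 and Pp1s181_24V6, which stayed low in the mutant. Pp1s118_235V6 had 1.03 and 22.0 CPM in wild type and 0.662 and 1.09 CPM in pubs hy2, so that its red light level in the mutant was 5.04% of that in wild type. Its fold in pubs hy2 of 1.60 has an interval (0.762 to 3.83) that holds 1. Pp1s181_24V6 had 0.683 and 14.5 CPM in wild type and 0.331 and 1.22 CPM in pubs hy2, 8.52% of the wild-type level after red light.

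In 28 members the dark level of pubs hy2 was at least 2-fold above wild type, and of these 8 were at least 2-fold lower after red light, 15 were within 2-fold and 5 were at least 2-fold higher. Their median level was 2.73 CPM in wild type in the dark and 10.7 CPM in pubs hy2, and the red light medians were 34.8 and 31.4 CPM. In 9 of the 28 the wild-type dark library had fewer than 20 reads, against 9 of the other 94 members, and that library enters both W and the dark ratio. Pp1s5_398V6 is an example of the 28, with 0.342 CPM (6 reads) and 9.93 CPM in wild type and 7.29 and 12.4 CPM in pubs hy2. Pp1s370_52V6 had 0.228 CPM (4 reads) and 12.9 CPM in wild type and 4.04 and 19.4 CPM in pubs hy2, so its increase in CPM was larger in the mutant, 121% of that in wild type, although its fold was 4.76 against 50.3.

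The 5 members with at least a 2-fold higher CPM in pubs hy2 after red light were Pp1s86_214V6, Pp1s171_10V6, Pp1s64_106V6, Pp1s145_47V6 and Pp1s163_129V6, and in these 5 the mutant in the dark already lay above wild type after red light. Pp1s86_214V6, the longest member at 3.63 kb, had 2.05 and 13.4 CPM in wild type and 107 and 165 CPM in pubs hy2. It was 51.7-fold (37.7 to 75.1) higher in pubs hy2 in the dark and 12.2-fold (10.9 to 13.8) higher after red light. Its W was 6.47 (4.64 to 9.52) and its M was 1.53 (1.44 to 1.62). Pp1s171_10V6 had 0.854 and 5.42 CPM in wild type and 13.3 and 23.1 CPM in pubs hy2. For these genes the fold was smaller in the mutant but the increase in CPM was larger, 501% of the wild-type increase for Pp1s86_214V6 and 214% for Pp1s171_10V6.

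In 11 members pubs hy2 was at least 2-fold below wild type in the dark, and these 11 were also at least 2-fold below it after red light. Their median level was 24.1 and 148 CPM in wild type and 11.9 and 36.0 CPM in pubs hy2. Pp1s7_391V6 had the lowest dark ratio, 0.270 (0.163 to 0.417), with 5.98 and 34.9 CPM in wild type and 1.59 and 4.61 CPM in pubs hy2. Pp1s517_11V6 was the most abundant of the 11, with 258 and 1159 CPM in wild type and 118 and 264 CPM in pubs hy2. Pp1s10_147V6 and Pp1s40_294V6 had dark ratios of 0.379 and 0.400 and red light ratios of 0.178 and 0.176. In 9 members pubs hy2 after red light did not reach the level of wild type in the dark, and in 113 it did.

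**Figure D4:**
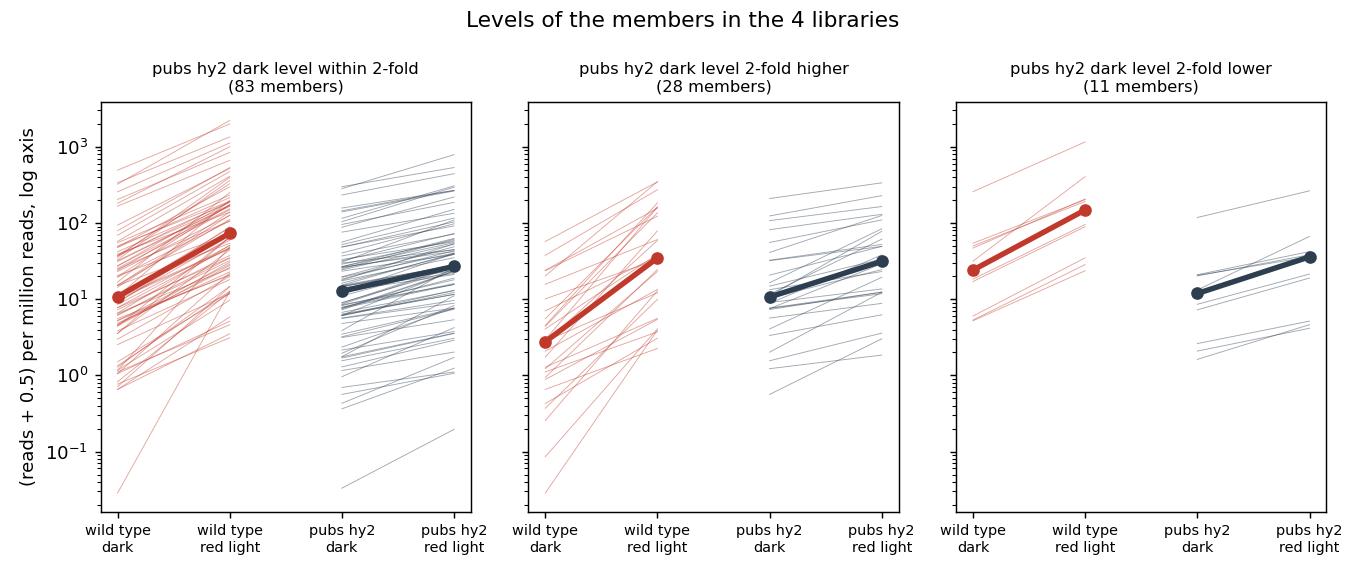
Level of each member in the 4 libraries, as CPM computed after adding 0.5 to the reads, on a log axis, in 3 panels by the dark level of pubs hy2 relative to wild type. Thin lines join dark to red light for each of 83, 28 and 11 members, and thick lines join the medians. In the first and last panel the red light median of pubs hy2 lies below that of wild type, and in the middle panel the red light medians nearly coincide (34.8 and 31.4 CPM).

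**Figure D5:**
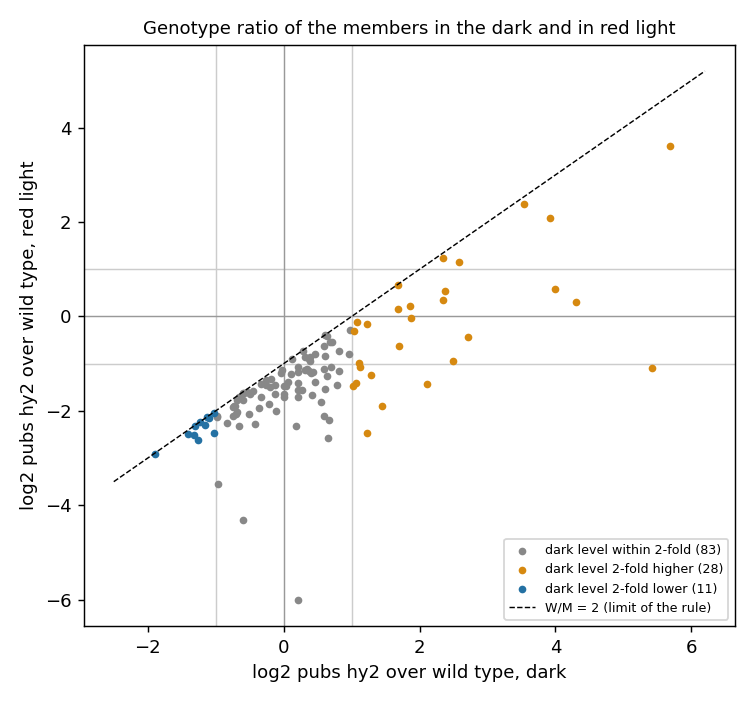
Log2 ratio of pubs hy2 to wild type in the dark (x axis) and after red light (y axis) for the 122 members, with 1 library behind each level. The dashed line is the limit W/M of 2, grey lines mark 2-fold, and 86 members lie at or below -1 after red light while 28 lie at or above 1 in the dark.

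The mean difference between genotypes over both light conditions was not itself a limit of the rule. It was tested across all genes with edgeR's quasi-likelihood test in an additive model of genotype and light. The model had 2 libraries of each genotype and 1 residual degree of freedom. The rule drew on the same 4 libraries, and it set a minimum of reads only in wild type after red light. It also required a lower pubs hy2 to wild type ratio after red light than in the dark. The calls of members in this test, and their split by direction, may therefore follow in part from the rule. Of 20409 genes tested, 23.1% passed at 0.05 after Benjamini-Hochberg adjustment, with 14.0% above and 9.08% below wild type in the mutant. Of the 121 members tested, 24 (19.8%) passed, 6 higher and 18 lower in pubs hy2. By direction, the 6 made 4.96% and the 18 made 14.9% of the members tested. By rule, the light responses of a member are unequal in the genotypes, and this adds to the residual error. With 1 library per group, the residual of this model is the difference in light response between the genotypes. The p-values set the genotype difference against that residual, with an error estimate that also draws on the other genes. They do not measure variation between replicate cultures, and separate cultures are not stated for the libraries. DESeq2 with the same model called 41 members (33.9%), of which 11 were higher and 30 lower in the mutant, against 20.4% of all genes tested. With limma on log2(RPKM + 0.1) the count was 0, with 29 members at an unadjusted p under 0.05, against 3.13% of all genes called. With limma on log2(RPKM + 1) it was 8 (6.61%), of which 4 were higher and 4 lower in the mutant, against 15.1% of all genes tested. With edgeR it was 32 of 122 (26.2%) without a filter on low counts, against 14.2% of all 32273 genes. That base includes the genes with few or no reads that the filter removes. In it 4590 genes were called, against 4707 of 20409 with the filter, so its share is not on a like base. The count was 31 (25.6%) on singly mapped genes, against 26.0%, and 25 (20.7%) with the size factors of DESeq2, against 23.8%. Among the settings with 20409 genes, whether the share of members called lay above or below that of all genes depended on the method.

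The 6 members that were higher in pubs hy2 by edgeR's test were the 5 named above and Pp1s93_173V6. Pp1s86_214V6 had a log2 difference of 4.62 (adjusted p = 0.0052), and Pp1s64_106V6 had 3.00 (adjusted p = 0.0115), each higher in both pubs hy2 libraries than in both wild-type libraries. Among the 18 lower members, Pp1s7_391V6 had a log2 difference of -2.39 (adjusted p = 0.0105), Pp1s10_147V6 had -1.86 (adjusted p = 0.0128) and Pp1s517_11V6 had -1.53 (adjusted p = 0.0228) by the same edgeR test. Pp1s15_231V6, also among the 18 and named after its values were seen, had a fold of 12.8 (11.8 to 14.0) in wild type, against 5.05 (4.36 to 5.89) in the mutant. It stood at 31.6 and 406 CPM in wild type and 13.2 and 66.7 CPM in pubs hy2, and its log2 difference between genotypes was -1.86 (edgeR adjusted p = 0.0203).

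Per length, the members had a lower median level than eligible genes in the dark and a higher one after red light. Their median RPKM was 5.83 in wild type in the dark, against 12.9 for eligible genes, and 47.7 after red light, against 12.6. In pubs hy2 it was 7.91 in the dark, against 11.6, and 17.6 after red light, against 11.9. At least 100 RPKM in wild-type red light was reached by 33 of 122 members and by 4.73% of eligible genes. The levels in the dark and after red light both enter the folds of the rule, so these comparisons of level carry no test. The genes were 0.192 kb (Pp1s29_302V6) to 3.63 kb long, with a median of 1.53 kb against 1.83 kb for eligible genes. No multi-mapping read was recorded for 120 members, and the highest share in the other 2 was 1.71% in Pp1s180_144V6.

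Other groups of genes with W of at least 3 are closest to the members. In 124 genes M was at least 1.5 and W/M was under 2, and in 132 genes M was under 1.5. The median dark ratio of pubs hy2 to wild type was 0.629 in the first of these groups, 1.18 in the members and 3.26 in the second. The median ratio after red light was 0.448, 0.367 and 0.884 in the same order. Median lengths were close, at 1.56, 1.53 and 1.42 kb. The groups were cut by values from these same libraries, so the differences between them were not tested.

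The identifiers, which carry a scaffold number and a gene number, placed the members on 105 of 1118 scaffolds. Of these, 15 held 2 members and 1 held more. Only Pp1s196_69V6 and Pp1s196_71V6 were nearest eligible neighbours by number. Pp1s196_69V6 had 8.997 and 75.5 CPM in wild type and 9.01 and 24.1 CPM in pubs hy2, and Pp1s196_71V6 had 5.52 and 163 CPM in wild type and 11.6 and 61.4 CPM in pubs hy2. Of 230 other eligible genes next to a member by number, 7 (3.04%) had W of at least 3. The share was 2.33% over all eligible genes, but that base includes the members, which the 230 leave out. The shares are therefore not on a like base, and nothing is read from them. The files do not state that the numbers follow the order of genes on the scaffold.

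Near the limits the choice of members was fine-grained. The limit on W was never decisive, since M of at least 1.5 and W/M of at least 2 together imply it, and the lowest W was 3.28 in Pp1s93_173V6. Just inside the limit on M were Pp1s131_25V6 with 1.504 and Pp1s198_6V6 with 1.509, and just outside were Pp1s75_99V6 with 1.498 and Pp1s73_255V6 with 1.497. For W/M, Pp1s58_210V6 with 2.008 and Pp1s517_11V6 with 2.010 were inside, and Pp1s90_103V6 with 1.983 and Pp1s74_20V6 with 1.979 were outside. For reads in wild-type red light, Pp1s64_106V6 with 55 and Pp1s5_138V6 with 75 were inside, and Pp1s317_16V6 with 47 and Pp1s10_197V6 with 46 were outside. The lower counting bound was at or above the limit in 114 members for W, in 85 for M and in 69 for W/M. It was above 1 in 122 members for W, in 118 for M and in 120 for W/M. These counts follow largely from the rule, which used the same folds, and nothing is read from them.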

How the data were processed

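Poly-A RNA was fragmented, copied by random priming and sequenced without molecular identifiers, per the labels' protocols. The authors deposited estimated counts of reads per gene, RPKM values, a gene length and the fraction of a gene's reads that is multi-mapping, per the file headers. Between 95.4% and 95.6% of the estimated counts in a library were whole. The aligner, genome build and annotation are not given in the sources used here. Reads on genes were 17560593, 24560047, 15098951 and 22975725 (wild type dark, red light, pubs hy2 dark, red light), so the floor of 3 reads corresponded to 0.171, 0.122, 0.199 and 0.131 CPM.

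The rule was applied to the estimated counts as deposited. Members, lists and named genes were chosen with earlier results of these data known. Named genes are the extremes of W, W/M, RPKM, genotype ratios and length, neighbours by number and genes next to the limits. Intervals of folds are Clopper-Pearson, scaled by library totals; those of W/M are normal on the log scale after adding 0.5. For the additive model, counts were rounded and filtered by expression (edgeR 4.0.16, DESeq2 1.42.0, limma 3.58.1, R 4.3.3). Other steps ran in Python 3.11.15 (scipy 1.17.1, pandas 2.3.3, numpy 2.4.6, matplotlib 3.10.9). Both computations were tested on simulated data. The simulation for the genotype test held no light response, so it did not cover the members, whose light responses are unequal by rule. Alternatives changed scaling, pseudocount, limits, depth and test.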

Additional observations from a re-analysis of the deposited data

How the results depend on the processing

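The number of members, 122, was 115 to 147 under 12 of 13 other settings, and 121 of the 122 remained with TMM scaling and 109 after thinning all libraries to the smallest. Without a minimum of reads it was 276, since genes with fewer than 50 reads then enter. The count of members at least 2-fold higher in the dark (28), the count at least 2-fold lower after red light (86) and the median folds stayed close under TMM factors, totals without the 100 most abundant genes and the authors' RPKM. The number of members called for genotype was 24 by edgeR (19.8%, against 23.1% of all genes), 41 with DESeq2 (33.9% against 20.4%), 8 with limma on log2(RPKM + 1) (6.61% against 15.1%) and 0 with limma on log2(RPKM + 0.1) (against 3.13%); the cause was not tested. It was 25 to 32 under the other edgeR settings. Without a filter the share of members was above that of all genes (26.2% against 14.2%), but that base includes genes with few or no reads. No paired analysis was possible because the labels give no replicate numbers and each group holds 1 library; light condition is a term of the genotype model. Depth limits the members with few dark reads: 18 had under 20 reads in wild type in the dark, and their folds have wide intervals.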
